A study of Mus musculus with 24 samples.

Results

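The comparison described here asks, gene by gene, whether loss of LPCAT3 in mouse inguinal white fat (iWAT) changed expression differently on an omega-6 enriched diet (n6) and on a saturated-fat enriched diet (SFA). Each gene's value is a difference of differences on the log2 scale, the genotype effect on n6 (KO n6 minus WT n6) minus the genotype effect on SFA (KO SFA minus WT SFA). A value above 0 means that the genotype effect was more positive, or less negative, on n6. It rests on 16 of the 24 libraries of the series, and every gene that passed the filter on low counts is included, 15259 of 35727. The 4 groups, with 4 libraries each, are KO on n6, WT on n6, KO on SFA and WT on SFA; the series' name for the KO is AdL3KO. All were iWAT of male mice aged 18 to 22 weeks, and on every diet 60% of calories came from fat. Neither the construct that deletes Lpcat3 nor the cells it acts in is given in the labels. The title of the series speaks of mature adipocytes, but the sample labels name only the depot and describe no isolation of cells. The labels do not say that replicates are separate animals, so the p-values measure the spread between these libraries, which may be technical.

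LPCAT3 is the enzyme of the endoplasmic reticulum that places polyunsaturated acyl chains, linoleate and arachidonate among them, on lysophospholipids, and so sets how unsaturated membranes are. Polyunsaturated fat in the diet is known to lower the processing of SREBP-1c, the transcription factor that drives fatty acid synthesis genes, and saturated fat does so less. White fat stores triglyceride in adipocytes, makes part of its own fatty acids, and houses macrophages, lymphocytes, vessels and stromal cells beside the adipocytes.

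The 16 libraries held 43.6 to 57.4 M counts (median 51.6 M). Adipocyte genes were abundant in every library, with Adipoq, the adiponectin gene, at 1260 to 2160 CPM (counts per M of the TMM-scaled library size) and Fabp4, the adipocyte fatty acid binding protein, at 8610 to 15000 CPM. A few libraries carried more RNA of other tissues. The mean log2 CPM over 12 B cell markers was 2.35 in KO n6 replicate 2, 1.78 in KO SFA replicate 2 and 2.17 in WT SFA replicate 3, against -1.66 to 0.01 in the other 13. Over 15 skeletal muscle markers it was 4.33 in KO n6 replicate 1, against -0.92 to 2.58 in the other 15. Results are therefore also given without libraries above 2 for the B cell or above 4 for the muscle list, which are KO n6 replicates 1 and 2 and WT SFA replicate 3, called below the 3 libraries richest in B cell or muscle RNA. KO SFA replicate 2 lies under that limit; leaving it out as well is an alternative chosen after seeing the data, given wherever it ends a call that the first kept.

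Lpcat3 itself (chromosome 6, 124663027-124704418, GRCm38) measured 50.05, 47.7, 49.1 and 49.2 CPM in KO n6, 69.9, 69.3, 72.9 and 66.02 in WT n6, 80.99, 73.8, 76.2 and 70.8 in KO SFA, and 97.8, 118, 129 and 123 in WT SFA. KO libraries lay below WT libraries on both diets without overlap, and both SFA groups lay above the n6 group of the same genotype. The genotype effect was -0.51 on n6 and -0.63 on SFA, a difference of 0.12 (SE 0.086, adjusted p = 0.538). Its exons overlap those of Emg1 on the opposite strand, whose difference was 0.20 (adjusted p = 0.259). Limma on log2(TPM + 1) put the Lpcat3 difference at 0.03, and leaving out 1 library at a time at 0.07 to 0.20.

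The genotype effect differed between the diets for 137 genes (0.898% of those tested) by edgeR's quasi-likelihood test at a Benjamini-Hochberg adjusted p below 0.05. In bulk tissue, fewer cells of a type cannot be told apart from less RNA per cell. The effect was more positive on n6 for 71 genes (0.465%) and more negative for 66 (0.433%). For comparison, the same fit called 6571 genes (43.1%) between KO and WT on n6 and 6086 (39.9%) between KO and WT on SFA. A difference of differences has a larger SE than either effect, for Lpcat3 0.086 against 0.0614 on n6 and 0.0605 on SFA. Its smaller count therefore does not show that effects were equal on the 2 diets. KO was higher for 21% and lower for 22.1% of tested genes on n6, and higher for 20% and lower for 19.9% on SFA. All KO libraries lay outside the range of the WT libraries for 39% of genes on n6 and 36.1% on SFA. At an unadjusted p below 0.05 the difference held for 2230 genes (14.6%), 1093 of them positive (7.16%) and 1137 negative (7.45%). The median size of the difference was 0.106 over all tested genes and 0.473 over those called, and 22 called genes reached 1 log2 unit. With limma on log2(TPM + 1), in place of the count test, the split was 87 positive and 182 negative.

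The genotype effects on the 2 diets, which share no library, had a Pearson correlation of 0.657 and a Spearman correlation of 0.705 across the tested genes, given as a description. Of the 137 genes, 32 were higher in KO on both diets and more so on n6, and 13 were higher in KO on both and more so on SFA. Another 13 were lower in KO on both diets, 8 of them more so on n6 and 5 more so on SFA. Over all tested genes, 4465 were called on both diets in the same direction, and 2571 of these (57.6%) had the larger effect on n6. The effect was called in opposite directions on the 2 diets for 11 genes. It was called on n6 but not on SFA for 21 genes higher and 20 lower in KO, and on SFA but not on n6 for 20 higher and 7 lower.

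**Figure D1:**
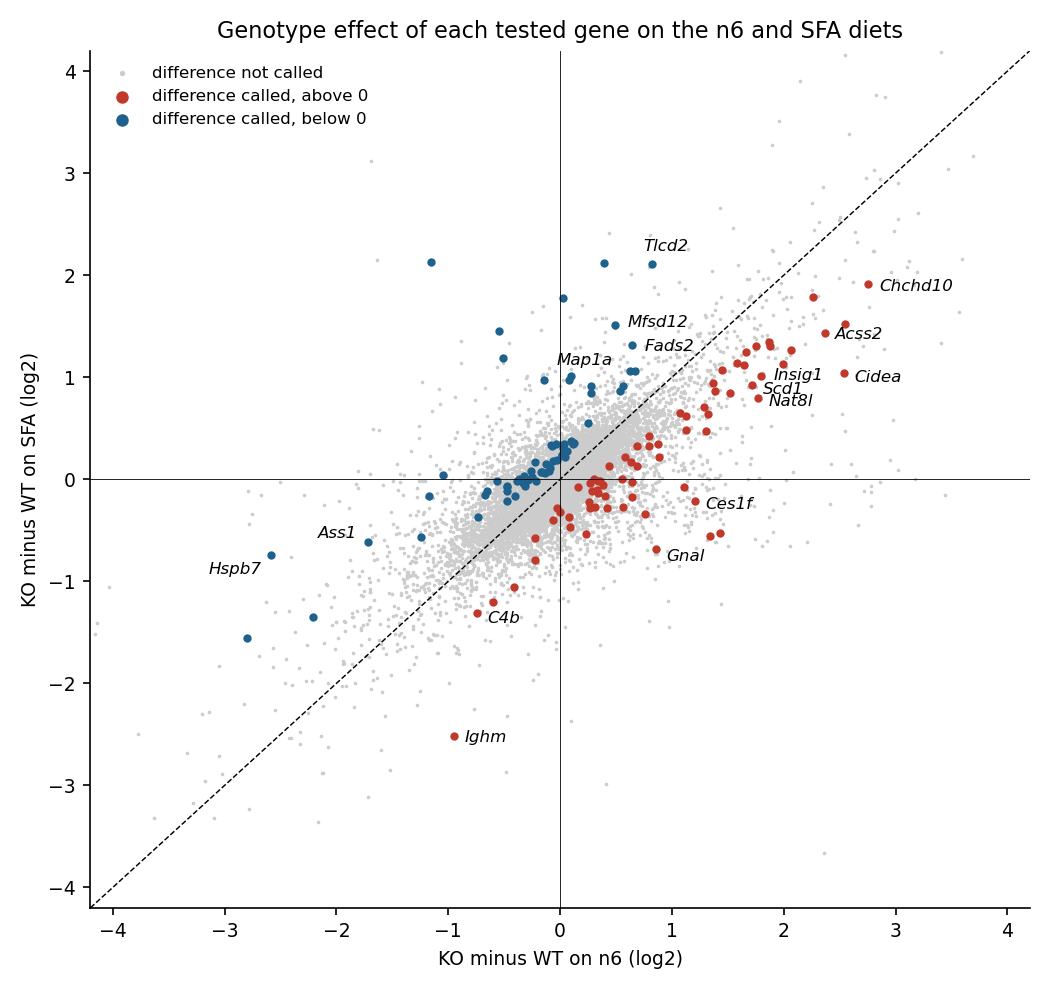
Genotype effect (KO minus WT, log2) of each tested gene on n6 (horizontal axis) and on SFA (vertical axis), with the 137 genes called for the difference in colour and the dashed line at equal effects. Acss2, Scd1, Insig1, Nat8l and Cidea lie right of the line above 0 on both axes, and Map1a, Tlcd2, Mfsd12 and Fads2 lie above it. Outside the plotted range of 4.2 log2 units are 44 genes, 0 of them called.

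The same difference can be read by diet within each genotype. The 71 positive genes were selected for a higher n6 minus SFA difference in KO than in WT, and the 66 negative genes for a lower one, so the contrast between the genotypes restates the selection and is given as a description. For the positive genes the median n6 minus SFA difference was 0.00 in KO and -0.57 in WT, and 34 of the 71 were below 0 in KO against 70 of 71 in WT. The diet difference was larger in size in WT for 60 of them, against 21 of the 66 negative genes and 7577 of all 15259 tested genes. Among the 66 negative genes the median diet difference was -0.24 in KO and 0.11 in WT, with 62 of 66 below 0 in KO and 14 of 66 in WT. Over all tested genes both medians were near 0, at 0.01 in KO and 0.00 in WT, with 7262 of 15259 genes below 0 in KO and 7554 in WT. By the test of n6 against SFA, 22.8% of tested genes were called in KO (8.92% higher and 13.8% lower on n6) and 24.7% in WT (11.6% higher and 13.1% lower). Of the 137 genes, 41 were called for diet in KO and not in WT, 57 in WT and not in KO, and 39 in both.

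Fatty acid synthesis was the listed pathway with the most called members. Of 18 tested genes of de novo lipogenesis, 6 were called higher and 0 lower, against 0.465% and 0.433% of all tested genes. Above 0 were 14 of the 18, against 49.5% of all tested genes. The median difference was 0.31, against -0.001 over all tested genes. Acss2 (chromosome 2, 155517948-155585724) makes cytosolic acetyl-CoA from acetate. It measured 581, 640.2, 636 and 558 CPM in KO n6, 119, 114, 125 and 111 in WT n6, 1011, 916, 1054 and 939 in KO SFA, and 287, 377, 411 and 377 in WT SFA. Every WT n6 library lay below every other library, and KO n6 libraries lay between WT SFA and KO SFA. The genotype effect on Acss2 was 2.37 on n6 and 1.43 on SFA, a difference of 0.93 (SE 0.112, adjusted p = 0.000122).

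Scd1 (chromosome 19, 44394455-44407879), the desaturase that makes oleate from stearate, was among the most abundant transcripts. It measured 67700, 71920, 64990 and 66800 CPM in KO n6, 18600, 24600, 18300 and 21030 in WT n6, 96920, 94550, 107200 and 100600 in KO SFA, and 51890, 54560, 50190 and 54370 in WT SFA. All 4 groups were apart, in the order KO SFA, KO n6, WT SFA and WT n6. KO exceeded WT by 1.72 on n6 and by 0.92 on SFA, and the difference was 0.80 (SE 0.109, adjusted p = 0.000531). The citrate carrier Slc25a1, which exports mitochondrial citrate for acetyl-CoA production, measured 1015, 985, 1064 and 1105 CPM in KO n6, 285, 266, 301 and 282 in WT n6, 1454, 1285, 1549 and 1363 in KO SFA, and 459.7, 601, 656 and 563 in WT SFA. Its 4 groups were likewise apart in that order. The difference for Slc25a1 was 0.57 (SE 0.113, adjusted p = 0.0192).

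The other 3 called members of the list were the second desaturase Scd2, with a difference of 0.44 (SE 0.0935, adjusted p = 0.0263), the elongase of palmitate Elovl6, with 0.41 (SE 0.0961, adjusted p = 0.0379), and the mitochondrion-associated acetyl-CoA carboxylase Acacb, with 0.47 (SE 0.115, adjusted p = 0.0493). Fasn, fatty acid synthase, had a difference of 0.40 (adjusted p = 0.0602) and Me1, which yields NADPH, 0.29 (adjusted p = 0.154). Acly, ATP citrate lyase, had -0.14 (adjusted p = 0.474) although its genotype effects were 1.36 on n6 and 1.51 on SFA. Srebf1, which encodes SREBP-1, had 0.25 (adjusted p = 0.243) and Mlxipl, which encodes the carbohydrate response factor ChREBP, -0.18 (adjusted p = 0.605). Without the 3 libraries richest in B cell or muscle RNA, Acss2 was at 0.85 (adjusted p = 0.00327) and Scd1 at 0.78 (adjusted p = 0.0111), both still called. None of the other 4 was called then. Slc25a1 stood at 0.55 (adjusted p = 0.056) and Scd2 at 0.32 (adjusted p = 0.177). Elovl6 stood at 0.37 (adjusted p = 0.18), and Acacb at 0.44 (adjusted p = 0.185). With limma on log2(TPM + 1), Acacb was at 0.19 (adjusted p = 0.463). Leaving out 1 library at a time kept Acss2, Scd1 and Slc25a1 called in 16 of 16 cases, Scd2 in 11, Elovl6 in 4 and Acacb in 2, with the highest adjusted p for Acacb at 0.123.

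**Figure D2:**
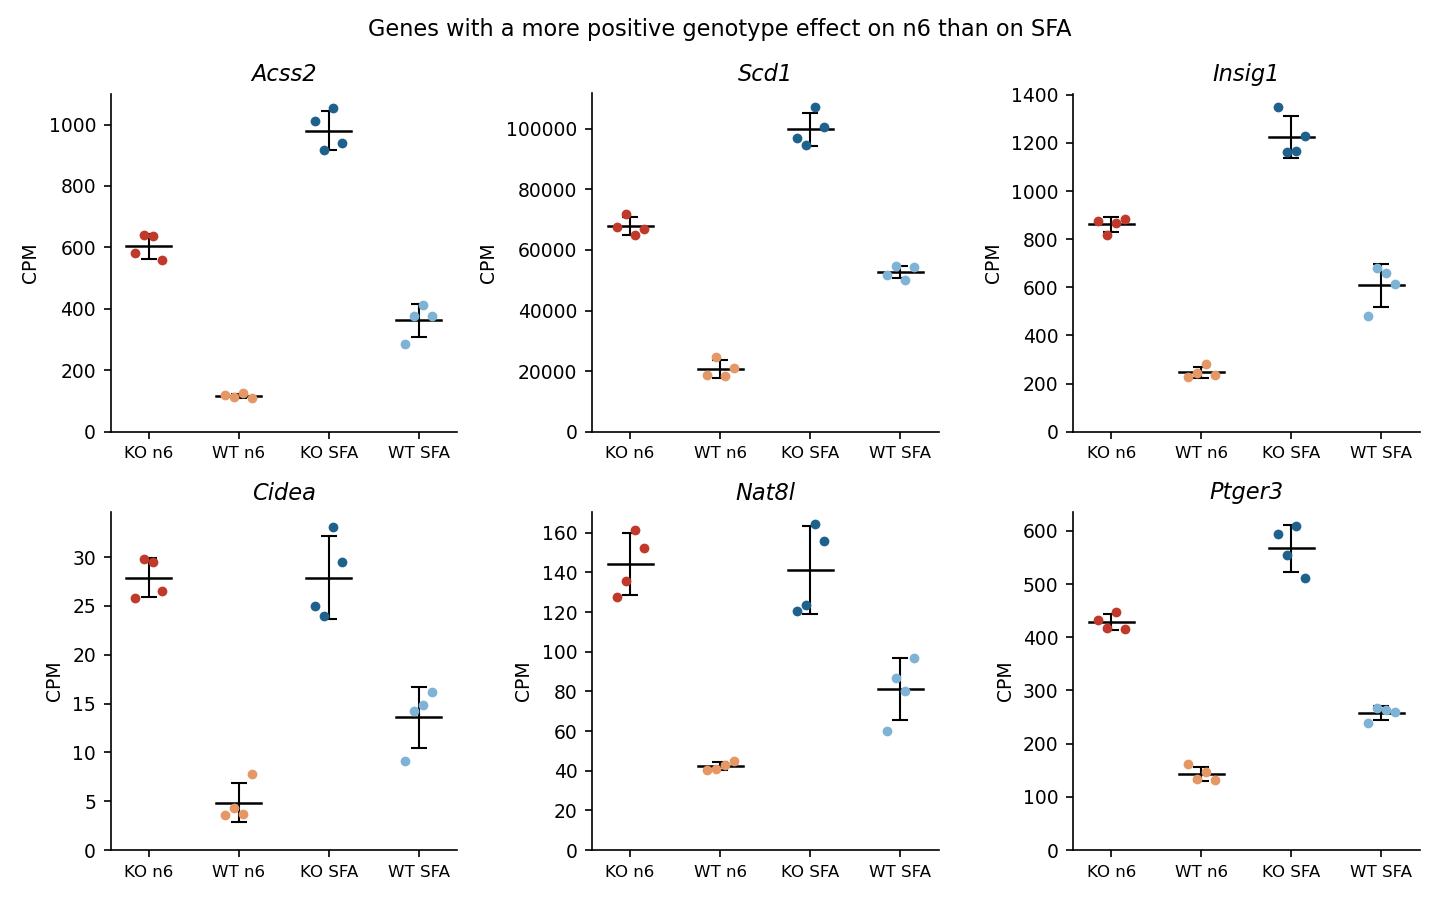
CPM per library (points), with the mean and SD of each group of 4 (lines and bars), for 6 genes whose genotype effect was more positive on n6 than on SFA. WT n6 is the lowest group in each panel, and for Cidea and Nat8l the 2 KO groups overlap while the 2 WT groups do not.

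Sterol genes were called in both directions. Of 25 tested genes of cholesterol synthesis and its control, 1 was called higher and 1 lower, against 0.465% and 0.433% of all tested genes. The median was -0.04. Insig1 (chromosome 5, 28071363-28078662), which holds the SREBP escort in the endoplasmic reticulum and is itself an SREBP target, was the higher one. It measured 876, 818, 867 and 883 CPM in KO n6, 228, 244, 281 and 235 in WT n6, 1349, 1162, 1165 and 1228 in KO SFA, and 479, 679, 659 and 614 in WT SFA. The 4 groups did not overlap. KO minus WT for Insig1 was 1.80 on n6 and 1.01 on SFA, with a difference of 0.79 (SE 0.12, adjusted p = 0.00155), and without the 3 libraries it was 0.77 (adjusted p = 0.0247). With KO SFA replicate 2 also left out it was 0.75 (adjusted p = 0.0582), no longer called.

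Hsd17b7 (chromosome 1, 169949535-169969241), a ketosteroid reductase of cholesterol synthesis, differed in the other direction. It measured 33.9, 32.1, 33.1 and 29.6 CPM in KO n6, 19.7, 20.1, 21 and 20 in WT n6, 60.9, 53.8, 50.7 and 53.6 in KO SFA, and 24.6, 25.2, 29.1 and 26.3 in WT SFA. The groups were apart and KO SFA stood highest. The genotype effect on Hsd17b7 was 0.67 on n6 and 1.06 on SFA, a difference of -0.38 (SE 0.0915, adjusted p = 0.0439). This call was the weaker of the pair: it held in 6 of 16 cases when 1 library was left out, and the value without the 3 libraries was -0.47 (adjusted p = 0.0553). Sqle, squalene epoxidase, had a difference of -0.07 (adjusted p = 0.804).

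Polyunsaturated fatty acid synthesis gave 1 called gene of 9 tested, against 0.898% of all tested genes. Fads2 (chromosome 19, 10062765-10101746), the desaturase that acts on linoleate and alpha-linolenate, measured 17.2, 15.8, 14.9 and 16.6 CPM in KO n6, 9.10, 9.52, 10.8 and 11.9 in WT n6, 29.1, 28.8, 30.6 and 25.7 in KO SFA, and 12.5, 11.5, 11.3 and 10.5 in WT SFA. KO SFA stood above the other groups, WT n6 and WT SFA overlapped, and KO n6 lay between. Fads2 had a genotype effect of 0.64 on n6 and 1.32 on SFA, with a difference of -0.68 (SE 0.126, adjusted p = 0.013). The value without the 3 libraries was -0.70 (adjusted p = 0.0588), no longer called. Fads1, the next desaturase in the route, had a difference of -0.18 (adjusted p = 0.493), and Elovl5, an elongase of polyunsaturated chains, -0.03 (adjusted p = 0.877).

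The promoters of 4 of these genes are printed because they regulate lipid genes that differed in opposite directions, Acss2 and Insig1 positive, Fads2 and Hsd17b7 negative. Each runs from 250 bases before to 50 bases after the gene's start, as RefSeq gives it on GRCm38.p6, in the direction of the gene. These starts differ from those of the GENCODE positions given above. GENCODE starts Fads2 at 10101746, so by that annotation nearly all of the Fads2 window lies inside the gene and not upstream of it. Capitals mark CACGTG, an E-box that basic helix-loop-helix factors bind and that reads the same on both strands.
Acss2, chr2:155517793-155518092, plus strand: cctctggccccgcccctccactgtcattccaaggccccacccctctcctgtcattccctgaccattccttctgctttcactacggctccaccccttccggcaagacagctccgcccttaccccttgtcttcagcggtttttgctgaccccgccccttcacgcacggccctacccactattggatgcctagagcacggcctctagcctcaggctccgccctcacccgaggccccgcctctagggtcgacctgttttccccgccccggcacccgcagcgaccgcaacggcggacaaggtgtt
Insig1, chr5:28071162-28071461, plus strand: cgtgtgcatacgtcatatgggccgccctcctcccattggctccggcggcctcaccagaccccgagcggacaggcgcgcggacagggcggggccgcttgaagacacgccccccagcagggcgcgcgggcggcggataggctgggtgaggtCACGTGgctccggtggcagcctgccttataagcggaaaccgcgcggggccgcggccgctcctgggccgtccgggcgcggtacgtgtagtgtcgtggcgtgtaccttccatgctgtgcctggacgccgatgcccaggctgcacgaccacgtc
Fads2, chr19:10101454-10101753, minus strand: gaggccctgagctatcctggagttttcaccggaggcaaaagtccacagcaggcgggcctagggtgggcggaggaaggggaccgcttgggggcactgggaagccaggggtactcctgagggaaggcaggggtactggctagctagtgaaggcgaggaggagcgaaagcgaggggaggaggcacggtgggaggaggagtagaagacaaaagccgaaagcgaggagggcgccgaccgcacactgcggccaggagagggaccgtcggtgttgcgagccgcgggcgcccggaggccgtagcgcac
Hsd17b7, chr1:169969156-169969455, minus strand: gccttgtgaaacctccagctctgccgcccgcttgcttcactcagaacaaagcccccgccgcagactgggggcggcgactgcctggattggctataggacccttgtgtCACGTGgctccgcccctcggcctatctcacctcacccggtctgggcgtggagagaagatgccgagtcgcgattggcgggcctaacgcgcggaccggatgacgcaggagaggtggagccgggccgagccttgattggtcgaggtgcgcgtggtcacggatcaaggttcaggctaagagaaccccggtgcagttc
The E-box stood at position -101 from the start in Insig1 and at -143 in Hsd17b7, and these letters were not in the windows of Acss2 and Fads2. Among called genes with a RefSeq window, it was present in 3 of 54 (5.56%) with a positive difference and in 7 of 51 (13.7%) with a negative one. The share was 11.1% of the 11467 tested genes with a window and 7.15% of all 32851 windows. A match of letters is a description of the sequence and does not show binding.

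Of 22 tested genes of triglyceride synthesis and lipid droplets, 2 were called higher and 0 lower, against 0.465% and 0.433% of all tested genes. The median was 0.08, with 14 of 22 above 0. Cidea, a droplet protein that also marks brown and beige adipocytes, measured 25.8, 29.8, 29.5 and 26.5 CPM in KO n6, 3.58, 4.28, 3.70 and 7.78 in WT n6, 25.01, 23.98, 33.1 and 29.5 in KO SFA, and 9.11, 14.3, 14.8 and 16.2 in WT SFA. The 2 KO groups overlapped, and WT n6 lay below WT SFA without overlap, with 1 WT n6 library at 7.78 CPM apart from the other 3. Cidea had a genotype effect of 2.54 on n6 and 1.04 on SFA, a difference of 1.5 (SE 0.285, adjusted p = 0.0185). Agpat2, which acylates lysophosphatidic acid, averaged 951 ± 63.6 CPM in KO n6, 304 ± 14.9 in WT n6, 1390 ± 94.6 in KO SFA and 640.0 ± 81 in WT SFA (SD, n = 4 each). Its difference was 0.53 (SE 0.106, adjusted p = 0.0214). With the 3 libraries left out, the values were 1.46 (adjusted p = 0.0827) for Cidea and 0.55 (adjusted p = 0.0517) for Agpat2, neither called. Dgat1 and Dgat2, which make triglyceride from diglyceride, had differences of 0.12 (adjusted p = 0.53) and -0.05 (adjusted p = 0.83).

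Of 14 tested lipolysis genes, 2 were called, both higher, against 0.465% of all tested genes called higher. The median was 0.20, with 12 of 14 above 0. Ces1f, a carboxylesterase of the triglyceride hydrolase group, measured 91.99, 123, 132 and 123 CPM in KO n6, 39.3, 52.1, 39.5 and 72.6 in WT n6, 67.5, 70.3, 101 and 102 in KO SFA, and 81.9, 109, 94.01 and 109 in WT SFA. KO n6 lay above WT n6, and KO SFA and WT SFA overlapped. KO minus WT for Ces1f was 1.21 on n6 and -0.21 on SFA, a difference of 1.42 (SE 0.276, adjusted p = 0.02). Its neighbour Ces1d, the main carboxylesterase of white fat, had 0.77 (SE 0.173, adjusted p = 0.0367) and was called in 6 of 16 cases with 1 library left out. The Ces1 genes are close copies in 1 cluster, and how the quantification shared reads among them is not given in the sources used here. Once the 3 libraries were left out, Ces1f was at 1.56 (adjusted p = 0.0517) and Ces1d at 0.85 (adjusted p = 0.0896). Adrb3, the beta-3 adrenergic receptor, had 0.65 (adjusted p = 0.0797), Pnpla2, adipose triglyceride lipase, 0.26 (adjusted p = 0.362) and Lipe, hormone-sensitive lipase, 0.09 (adjusted p = 0.762).

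In 2 lists of glucose use 1 gene each was called, both negative, against 0.898% of all tested genes called in either direction. G6pdx, which opens the pentose phosphate route and yields NADPH, had -0.35 (SE 0.0836, adjusted p = 0.0449), the 1 called gene of 10 in its list. Pkm, pyruvate kinase, had -0.30 (SE 0.0615, adjusted p = 0.0229), the 1 called gene of 19 in glucose uptake and glycolysis. The list medians were near 0, at -0.05 for pentose phosphate and NADPH and -0.02 for glucose uptake and glycolysis. Above 0 were 4 of 10 and 9 of 19 genes, against 49.5% of all tested genes. G6pdx measured 398, 414, 378 and 379 CPM in KO n6, 275, 274, 273 and 239 in WT n6, 584, 553, 598 and 576 in KO SFA, and 311, 295, 312 and 309.7 in WT SFA. Pkm averaged 386 ± 2.27 CPM in KO n6, 326 ± 7.69 in WT n6, 498 ± 32.4 in KO SFA and 341 ± 11.6 in WT SFA (SD, n = 4 each). Both were higher in KO on both diets and more so on SFA. The call on G6pdx held in 2 of 16 cases with 1 library left out, and that on Pkm in 14 of 16, failing without KO SFA replicate 1 (adjusted p = 0.0605) and without WT SFA replicate 2. Neither was called without the 3 libraries, at -0.41 (adjusted p = 0.0896) and -0.32 (adjusted p = 0.0827).

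Phospholipid genes gave 1 called gene of 25 tested, against 0.898% of all tested genes, with a median of -0.02. Lpgat1 (chromosome 1, 191717834-191784255), an acyltransferase of lysophospholipids like LPCAT3, measured 1333, 1456, 1528 and 1327 CPM in KO n6, 2132, 2131, 2105 and 1984 in WT n6, 1871, 1714, 1706 and 1708 in KO SFA, and 1860, 1717, 1784 and 1708 in WT SFA. KO n6 stood below all other groups, and KO SFA and WT SFA overlapped. Its genotype effect was -0.56 on n6 and -0.01 on SFA, and the difference was -0.55 (SE 0.0927, adjusted p = 0.00528). The value without the 3 libraries was -0.54 (adjusted p = 0.0517), no longer called. The other lysophosphatidylcholine acyltransferases were not called, with Lpcat1 at -0.02 (adjusted p = 0.949), Lpcat2 at 0.16 (adjusted p = 0.821) and Lpcat4 at 0.23 (adjusted p = 0.581).

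Tlcd2 (chromosome 11, 75461715-75470899) encodes a membrane protein that in human cells has been linked to how much long-chain polyunsaturated fatty acid enters phospholipids. It measured 17.7, 19.7, 17.1 and 15.8 CPM in KO n6, 9.14, 10.4, 9.67 and 10.5 in WT n6, 89.3, 72.5, 77.2 and 54.5 in KO SFA, and 14.9, 17.9, 15.98 and 19.1 in WT SFA. KO SFA libraries were above all others, and KO n6 and WT SFA overlapped. Tlcd2 had a genotype effect of 0.82 on n6 and 2.11 on SFA, a difference of -1.29 (SE 0.176, adjusted p = 0.000658), and was at -1.36 (adjusted p = 0.00974) without the 3 libraries. Its close relative Tlcd1 had effects of 0.89 on n6 and 0.78 on SFA, a difference of 0.11 (adjusted p = 0.663). Exons of Tlcd2 overlap those of Mir22hg on the same strand.

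**Figure D3:**
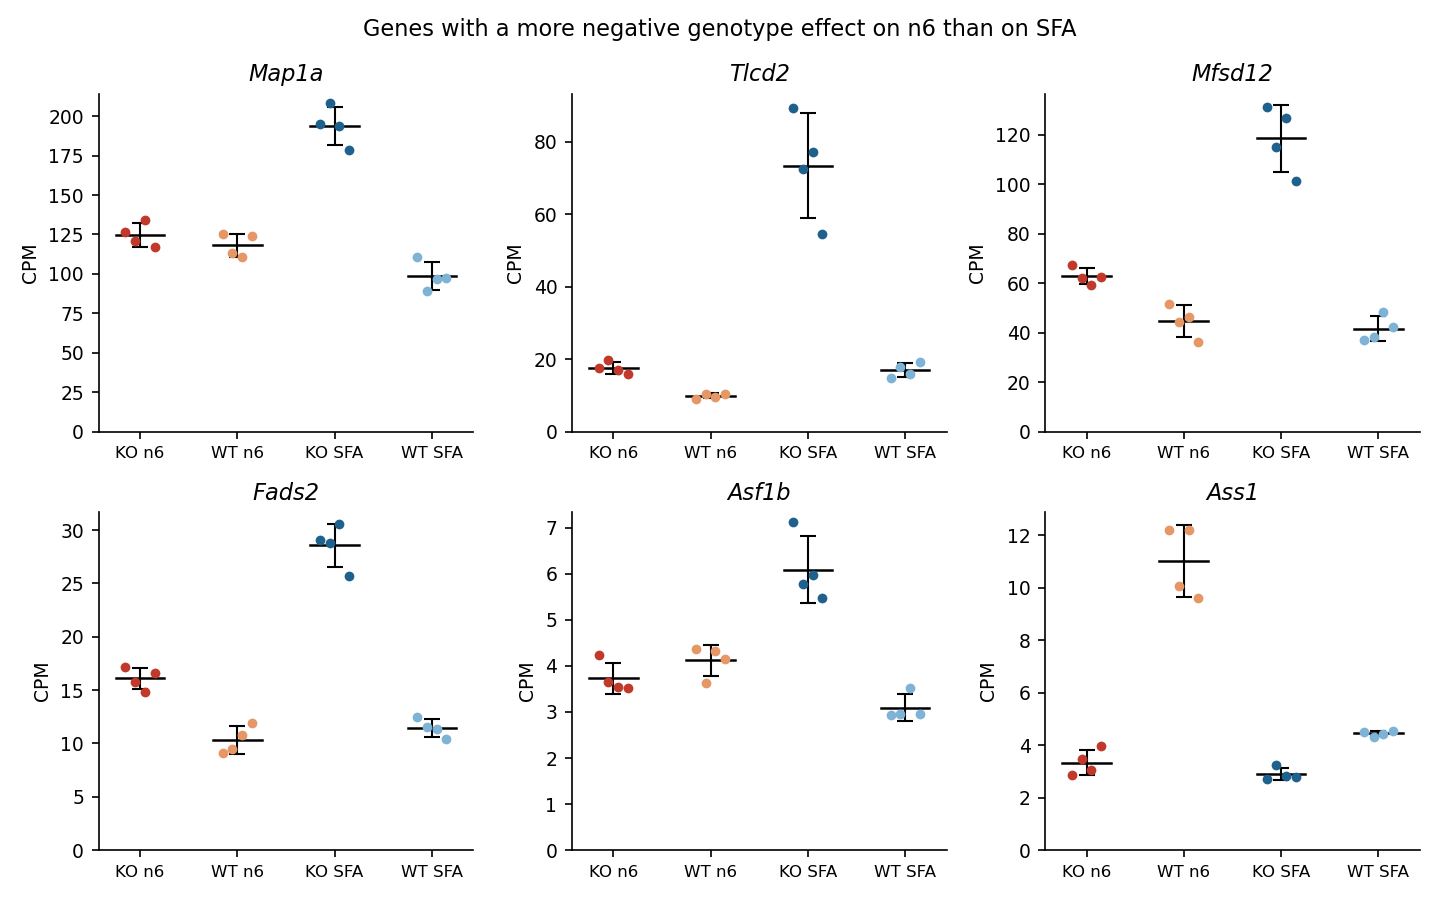
CPM per library (points), with the mean and SD of each group of 4 (lines and bars), for 6 genes whose genotype effect was more negative on n6 than on SFA. KO SFA is the highest group for Map1a, Tlcd2, Mfsd12, Fads2 and Asf1b, and WT n6 is the highest for Ass1.

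All 13 transcripts of the mitochondrial genome, 42 of 43 nuclear genes of the respiratory chain, 18 of 18 of the tricarboxylic acid cycle and 18 of 19 of beta-oxidation were above 0, against 49.5% of all tested genes. Their medians were 0.33, 0.14, 0.12 and 0.19, and members of a list share libraries and cells, so these counts carry no test. Of the 93 genes 1 was called, mt-Nd2, a complex I subunit, with 0.42 (SE 0.0968, adjusted p = 0.0367). It measured 7013, 6844, 7040 and 7472 CPM in KO n6, 2579, 2750, 2828 and 2847 in WT n6, 8571, 8082, 8884 and 7820 in KO SFA, and 3647, 4432, 4496 and 4761 in WT SFA. The 4 groups were apart, KO SFA highest and WT n6 lowest. The call held in 5 of 16 cases with 1 library left out, and the value without the 3 libraries was 0.44 (adjusted p = 0.125). The medians held their sign with any 1 library left out, in ranges of 0.28 to 0.43, 0.11 to 0.19, 0.09 to 0.14 and 0.15 to 0.24. Genes of adipocyte identity, read the same way, had 16 of 20 above 0 and a median of 0.18, from 0.11 to 0.22 with 1 library left out, and their part in the mitochondrial values was not tested. Branched-chain amino acid breakdown had 19 of 21 genes above 0 and a median of 0.18, with 0 called.

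Among genes outside these lists, Nat8l, which makes N-acetylaspartate from aspartate and acetyl-CoA, measured 128, 136, 162 and 152 CPM in KO n6, 40.4, 41.1, 43.01 and 44.9 in WT n6, 121, 123, 164 and 156 in KO SFA, and 60.1, 87.02, 80.3 and 96.9 in WT SFA. The KO groups overlapped, and WT n6 lay below WT SFA. The genotype effect on Nat8l was 1.77 on n6 and 0.80 on SFA, a difference of 0.97 (SE 0.17, adjusted p = 0.0104), and 1.09 (adjusted p = 0.0247) without the 3 libraries. Leaving out KO SFA replicate 2 as well gave 1.03 (adjusted p = 0.0582), which ended the call. Chchd10, a protein of the mitochondrial intermembrane space, averaged 113 ± 9.69 CPM in KO n6, 16.8 ± 1.91 in WT n6, 122 ± 12.6 in KO SFA and 32.5 ± 7.38 in WT SFA (SD, n = 4 each). Its genotype effects were 2.76 on n6 and 1.91 on SFA, and its difference was 0.85 (SE 0.165, adjusted p = 0.0196). Gldc, the glycine decarboxylase of the glycine cleavage system, had 0.87 (SE 0.18, adjusted p = 0.024). The call on Gldc held in 9 of 16 cases with 1 library left out. After leaving out the 3 libraries, Chchd10 was at 0.69 (adjusted p = 0.0588) and Gldc at 0.95 (adjusted p = 0.0744). Ucp1, the uncoupling protein of brown fat, was below 1 CPM in all 16 libraries. Its difference was 2.46 (SE 0.796, adjusted p = 0.145), and without WT n6 replicate 4 it was 3.93 (adjusted p = 0.00672). Of the 21 tested thermogenic genes, Cidea alone was called.

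Of 27 tested eicosanoid enzymes and receptors, 3 prostaglandin genes were called, all positive, against 0.465% of all tested genes called positive. The median of the list was 0.00, with 14 of 27 above 0. Hpgd, which inactivates prostaglandins by oxidation, measured 121, 111, 128 and 124 CPM in KO n6, 82.9, 101, 92.5 and 89.6 in WT n6, 108, 107, 112 and 115 in KO SFA, and 124, 122, 129.6 and 120.1 in WT SFA. KO n6 lay above WT n6, and KO SFA lay below WT SFA, without overlap in either pair. Hpgd had a genotype effect of 0.40 on n6 and -0.16 on SFA, both called, and the difference was 0.57 (SE 0.0886, adjusted p = 0.00209). Ptger3, a prostaglandin E receptor abundant in adipocytes, measured 433, 417, 448 and 415 CPM in KO n6, 161, 134, 147 and 132 in WT n6, 594, 555, 609 and 511 in KO SFA, and 239, 268, 264 and 260.1 in WT SFA. The groups were apart in the order KO SFA, KO n6, WT SFA and WT n6, and the difference was 0.44 (SE 0.0871, adjusted p = 0.0192). Ptgfr, the prostaglandin F receptor, had 0.67 (SE 0.14, adjusted p = 0.024), which limma on log2(TPM + 1) put at 0.43 (adjusted p = 0.0818). The call on Ptgfr held in 10 of 16 cases with 1 library left out. Without the 3 libraries Hpgd was at 0.60 (adjusted p = 0.0111), still called, and Ptger3 at 0.44 (adjusted p = 0.0853) and Ptgfr at 0.72 (adjusted p = 0.0542), not called. The cyclooxygenases Ptgs1 and Ptgs2, which open the prostaglandin route, had 0.03 (adjusted p = 0.945) and 0.11 (adjusted p = 0.923).

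Genes of insulin response and secretion were called singly. Grb14, an adaptor that inhibits the insulin receptor, measured 86.1, 84.4, 84.2 and 94.1 CPM in KO n6, 52.1, 51.5, 50.8 and 61.5 in WT n6, 92.4, 87.1, 91.6 and 93.1 in KO SFA, and 71.5, 85.04, 84.5 and 91.2 in WT SFA. KO n6 and WT n6 did not overlap, while KO SFA and WT SFA did. Grb14 had a genotype effect of 0.69 on n6 and 0.13 on SFA, a difference of 0.56 (SE 0.103, adjusted p = 0.013), and it was the 1 called gene of 21 tested in insulin signalling. Trarg1, which acts in the traffic of the insulin-responsive glucose transporter, had 0.36 (SE 0.0758, adjusted p = 0.0249). It was called in 10 of 16 cases with 1 library left out. Nrg4, a neuregulin secreted by adipocytes, measured 61.7, 65.9, 78.05 and 63.4 CPM in KO n6, 44.2, 39.5, 38.5 and 50.4 in WT n6, 62.6, 61, 78.4 and 78.5 in KO SFA, and 67.3, 75.4, 67.7 and 75.2 in WT SFA. WT n6 stood below the other 3 groups, and KO SFA and WT SFA overlapped. Its difference was 0.67 (SE 0.138, adjusted p = 0.024), called in 12 of 16 cases with 1 library left out. Of 20 tested genes of adipocyte identity, 16 were above 0 and 1, Trarg1, was called, with a median of 0.18. Adipoq had a difference of 0.34 (adjusted p = 0.154), Lep, the leptin gene, -0.28 (adjusted p = 0.23) and Pparg, the adipocyte nuclear receptor, 0.00 (adjusted p = 0.998). With the 3 libraries left out, Grb14 was at 0.58 (adjusted p = 0.056), Nrg4 at 0.76 (adjusted p = 0.056) and Trarg1 at 0.44 (adjusted p = 0.0413). The call on Trarg1 held there but not with KO SFA replicate 2 also left out, at 0.41 (adjusted p = 0.077).

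C4b (chromosome 17, 34728380-34743882), the complement component C4 cleaved by both the classical and the lectin pathway, measured 788, 647, 726 and 769.9 CPM in KO n6, 1282, 1232, 1217 and 1180 in WT n6, 604, 534, 607 and 582 in KO SFA, and 1558, 1378, 1409 and 1419 in WT SFA. KO was below WT on both diets, and WT SFA was highest. KO minus WT for C4b was -0.74 on n6 and -1.31 on SFA, a difference of 0.56 (SE 0.0839, adjusted p = 0.00134), and 0.60 (adjusted p = 0.00327) without the 3 libraries. C1ra, a protease of the classical pathway chosen after its values were seen, had effects of -0.23 on n6 and -0.57 on SFA and a difference of 0.34 (adjusted p = 0.0231). Masp1, a protease of the lectin pathway, measured 2.55, 2.72, 2.27 and 2.33 CPM in KO n6, 4.71, 4.75, 5.08 and 5.81 in WT n6, 3.98, 2.87, 3.00 and 2.90 in KO SFA, and 3.40, 2.50, 3.32 and 3.12 in WT SFA. WT n6 was above all the others and the SFA groups overlapped. Masp1 had a genotype effect of -1.04 on n6 and 0.04 on SFA, with a difference of -1.09 (SE 0.184, adjusted p = 0.00528), and was at -1.23 (adjusted p = 0.0246) without the 3 libraries.

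Ighm, the constant region of the immunoglobulin mu chain, lies outside the rule for named genes and was chosen after its values were seen, since it had the smallest adjusted p together with Map1a. It measured 285, 366, 357 and 393 CPM in KO n6, 672, 672, 660.1 and 694 in WT n6, 87.1, 108, 100.2 and 112 in KO SFA, and 595, 529, 575 and 629.7 in WT SFA. KO lay below WT on both diets, KO SFA lowest, with no overlap. The genotype effect on Ighm was -0.94 on n6 and -2.52 on SFA, a difference of 1.57 (SE 0.173, adjusted p = 7.52e-05). KO n6 replicate 2, KO SFA replicate 2 and WT SFA replicate 3, the libraries highest in B cell markers, held 366, 108 and 575 CPM of Ighm, within the range of their groups, and without the 3 libraries the value was 1.68 (adjusted p = 0.000862). The light chain gene Igkc had a difference of 1.5 (adjusted p = 0.311) and Jchain, the joining chain of polymeric antibody, 0.70 (adjusted p = 0.641).

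Interferon response genes had 23 of 23 members above 0, against 49.5% of all tested genes, with a median of 0.20, and 1 was called. The median ran from 0.07 to 0.29 with 1 library left out. Members of this list also share libraries and cells, so the count carries no test. Ifi27l2a had 0.70 (SE 0.16, adjusted p = 0.0369); Irf7, the interferon regulatory factor of the type I response, had 0.54 (adjusted p = 0.0532). Tbx21, the T-bet factor of T and natural killer cells, was called at 1.10 (SE 0.268, adjusted p = 0.0487), in 2 of 16 cases with 1 library left out, and averaged 2.84 ± 0.298 CPM in KO n6, 1.68 ± 0.500 in WT n6, 1.93 ± 0.379 in KO SFA and 2.45 ± 0.131 in WT SFA (SD, n = 4 each). Limma on log2(TPM + 1) put Tbx21 at 0.67 (adjusted p = 0.0346). The 18 T and natural killer cell markers had a median difference of 1.18 with 0 called, and the 12 B cell markers a median of 2.68 with 0 called. Summed over the T and natural killer list, levels were 22.4 to 53.7 CPM in KO n6, 27.2 to 43.7 in WT n6, 20.7 to 30.3 in KO SFA and 30.4 to 37.5 in WT SFA. Summed over the B cell list they were 7.73 to 66.1 CPM in KO n6, 5.41 to 6.63 in WT n6, 6.79 to 45.2 in KO SFA and 5.14 to 57.7 in WT SFA, and no member of either list was at 0 throughout a group. Once the 3 libraries were left out, the medians were 0.83 for T and natural killer markers, -0.28 for B cell markers and 0.06 for interferon genes, and Ifi27l2a and Tbx21 were at 0.82 (adjusted p = 0.0697) and 1.21 (adjusted p = 0.116). The part of these cells in the other results was not tested.

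Proliferation genes were the list with every member below 0, 20 of 20, with a median of -0.37 and a range of medians from -0.48 to -0.26 with 1 library left out. Above 0 were 49.5% of all tested genes. Members of a list share libraries and cells, so the count carries no test. The sliding clamp of DNA replication, Pcna, was the 1 called member. It averaged 39 ± 0.771 CPM in KO n6, 51.7 ± 3.50 in WT n6, 40.1 ± 0.931 in KO SFA and 44.9 ± 0.990 in WT SFA (SD, n = 4 each), with a difference of -0.24 (SE 0.0587, adjusted p = 0.0449), and was called in 1 of 16 cases with 1 library left out. Mki67, which encodes the Ki-67 antigen, had -0.52 (adjusted p = 0.315) and Top2a, topoisomerase II alpha, -0.34 (adjusted p = 0.467). Between KO and WT, 17 of the 20 were called lower on n6 and 2 on SFA, against 22.1% and 19.9% of all tested genes. Markers of lipid-associated macrophages had 4 of 15 members above 0, a median of -0.41 and 0 called, with Trem2 at -0.74 (adjusted p = 0.304) and Gpnmb at -0.78 (adjusted p = 0.252). The mean log2 CPM of that list was 7.16 to 7.63 in KO n6, 7.57 to 8.07 in WT n6, 7.24 to 7.49 in KO SFA and 7.38 to 7.67 in WT SFA. Its part in the proliferation values was not tested.

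**Figure D4:**
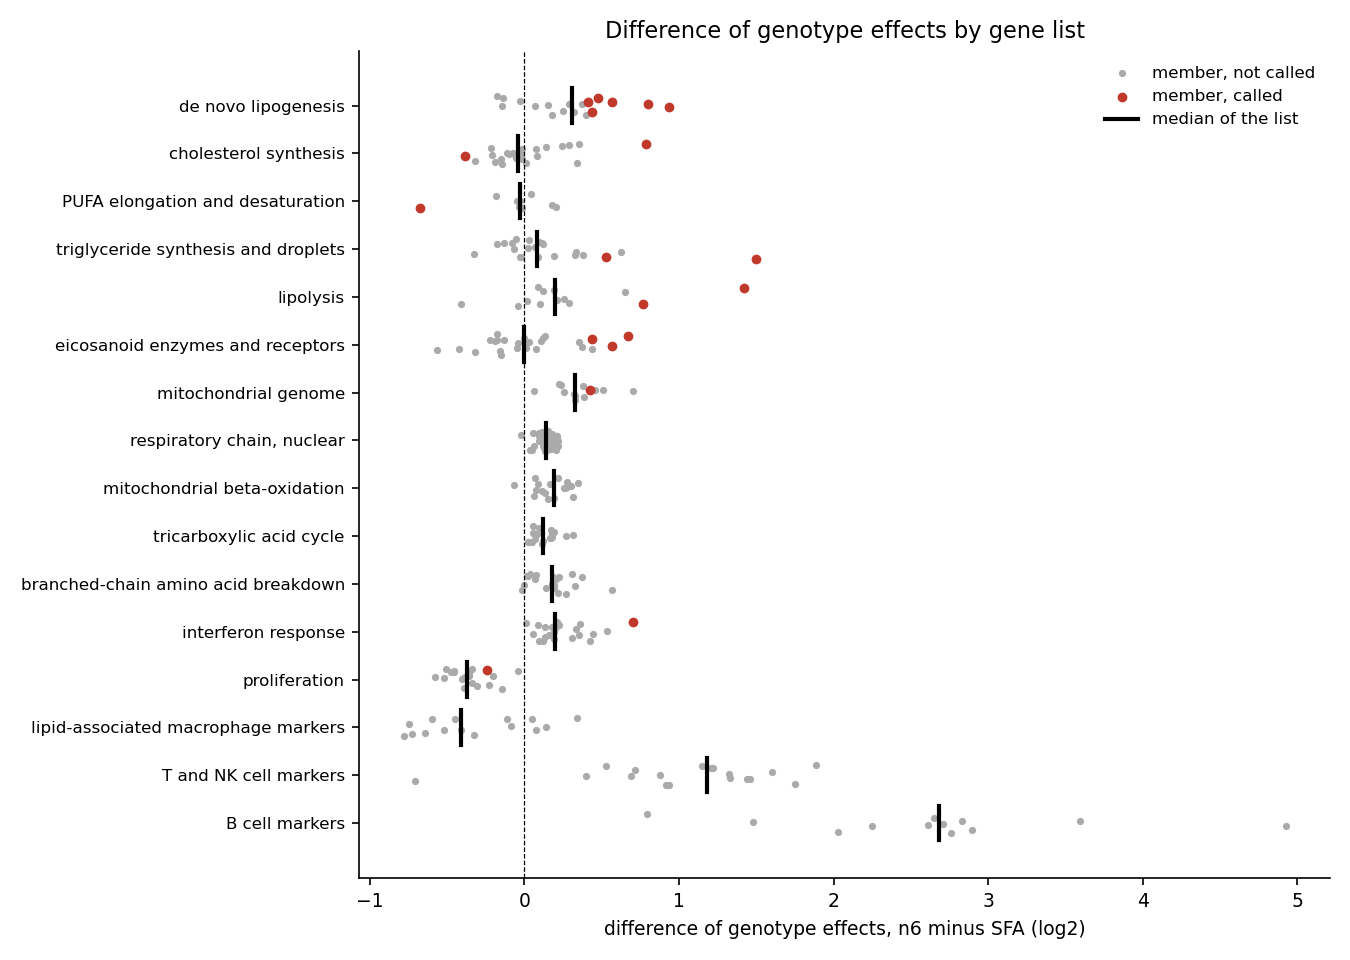
Difference of genotype effects (n6 minus SFA, log2) of each tested member of 16 gene lists, with called members in red and the list's median as a black bar. De novo lipogenesis holds 6 called members right of 0, the 4 mitochondrial lists sit close to and right of 0 with medians of 0.12 to 0.33, and proliferation lies wholly left of 0.

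Among genes of other roles, Map1a (chromosome 2, 121289600-121310832), a microtubule-associated protein, had the smallest adjusted p beside Ighm. It measured 127, 121, 134 and 117 CPM in KO n6, 125, 113, 110.5 and 124 in WT n6, 195, 208, 194 and 179 in KO SFA, and 111, 89.2, 96.96 and 97.1 in WT SFA. KO SFA stood alone above the other groups, and KO n6 and WT n6 overlapped. KO minus WT for Map1a was 0.08 on n6 and 0.98 on SFA, a difference of -0.90 (SE 0.102, adjusted p = 7.52e-05), and -0.88 (adjusted p = 0.00327) without the 3 libraries. Its exons overlap those of Ppip5k1 on the opposite strand, whose difference was 0.08 (adjusted p = 0.624). Mfsd12, a cysteine transporter of lysosomes and melanosomes, measured 67.3, 62.1, 59.4 and 62.3 CPM in KO n6, 51.6, 44.4, 46.4 and 36.3 in WT n6, 131, 115, 127 and 101 in KO SFA, and 37.2, 38.2, 48.3 and 42.3 in WT SFA. KO SFA was again far above, WT n6 and WT SFA overlapped, and the difference was -1.02 (SE 0.142, adjusted p = 0.000756). Asf1b, a histone chaperone of S phase, measured 4.23, 3.65, 3.53 and 3.51 CPM in KO n6, 4.37, 3.63, 4.32 and 4.16 in WT n6, 7.12, 5.77, 5.98 and 5.47 in KO SFA, and 2.92, 2.95, 3.53 and 2.95 in WT SFA, with KO SFA highest. Its genotype effects were -0.14 on n6 and 0.98 on SFA, the difference was -1.12 (SE 0.145, adjusted p = 0.000269), and it is no member of the proliferation list. Rdh11, a retinal reductase, had -0.56 (SE 0.0855, adjusted p = 0.00155). After leaving out the 3 libraries, Mfsd12 was at -1.15 (adjusted p = 0.00327), Asf1b at -1.27 (adjusted p = 0.00137) and Rdh11 at -0.55 (adjusted p = 0.0303), all 3 still called. With KO SFA replicate 2 also left out Rdh11 was at -0.56 (adjusted p = 0.0576), not called.

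For other genes KO lay further below WT on n6. Ass1, argininosuccinate synthase, which makes the precursor of arginine, measured 2.87, 3.49, 3.04 and 3.96 CPM in KO n6, 12.2, 10.1, 12.2 and 9.62 in WT n6, 2.71, 3.25, 2.85 and 2.80 in KO SFA, and 4.49, 4.33, 4.44 and 4.54 in WT SFA. WT n6 was above all other groups, and WT SFA was above both KO groups, which overlapped. The genotype effect on Ass1 was -1.72 on n6 and -0.62 on SFA, a difference of -1.11 (SE 0.178, adjusted p = 0.00295), and -1.03 (adjusted p = 0.0498) without the 3 libraries. With KO SFA replicate 2 also left out it was -0.98 (adjusted p = 0.0859), not called. Nrip2, a nuclear receptor interacting protein, had -1.02 (SE 0.197, adjusted p = 0.0179). Hspb7, a small heat shock protein of muscle, averaged 3.93 ± 1.00 CPM in KO n6, 23.6 ± 9.86 in WT n6, 5.04 ± 0.948 in KO SFA and 8.43 ± 2.16 in WT SFA (SD, n = 4 each). Its difference was -1.85 (SE 0.376, adjusted p = 0.0238), and it was called in 10 of 16 cases with 1 library left out. Skeletal muscle markers summed to 62.3 to 451 CPM in KO n6, 66.9 to 124 in WT n6, 58.4 to 153 in KO SFA and 80.4 to 106 in WT SFA, with a median difference of 0.28 that ranged from -1.64 to 1.17 with 1 library left out. Hspb7 in KO n6 replicate 1, the library richest in muscle RNA, was 5.12 CPM. Without the 3 libraries Nrip2 was at -0.87 (adjusted p = 0.0769) and Hspb7 at -1.92 (adjusted p = 0.0896), not called.

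For 11 genes the genotype effect was called in opposite directions on the 2 diets. Vav2, an exchange factor for small GTPases, measured 30.8, 30.7, 30.4 and 32.2 CPM in KO n6, 39.3, 33.97, 36.5 and 35.7 in WT n6, 38.2, 36.6, 36.2 and 32.96 in KO SFA, and 32.8, 31.7, 31.7 and 31.6 in WT SFA, with KO below WT on n6 and above WT on SFA, and neither pair overlapped. The effect on Vav2 was -0.23 on n6 and 0.17 on SFA, and its difference was -0.40 (SE 0.0679, adjusted p = 0.00548).

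Cdon, a cell surface co-receptor of hedgehog ligands, went the other way. It measured 66.7, 62.8, 72.05 and 76.6 CPM in KO n6, 52.9, 53.6, 58.4 and 59.7 in WT n6, 68.9, 64.97, 57.4 and 66.2 in KO SFA, and 73.2, 86.5, 73.2 and 78.7 in WT SFA, with KO above WT on n6 and below WT on SFA, and without overlap in either pair. The difference for Cdon was 0.58 (SE 0.114, adjusted p = 0.0187), and 0.71 (adjusted p = 0.0226) without the 3 libraries. Dpt, the matrix protein dermatopontin, had effects of 0.27 and -0.28 on n6 and SFA and a difference of 0.55 (SE 0.124, adjusted p = 0.0338). KO and WT libraries overlapped for Dpt on n6 but not on SFA. Gnal, a stimulatory G protein alpha subunit, had effects of 0.85 and -0.68 and a difference of 1.53 (SE 0.323, adjusted p = 0.0295). For Gnal the KO and WT libraries overlapped on SFA but not on n6. Called in 16 of 16 cases with 1 library left out were Vav2, Hpgd and Cdon, while Gnal held in 9, Dpt in 6 and Ifi27l2a in 6. With the 3 libraries left out, Vav2 was at -0.38 (adjusted p = 0.0651), Dpt at 0.63 (adjusted p = 0.0769) and Gnal at 1.51 (adjusted p = 0.0825), none of them called.

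How many genes were called depended on single libraries. Leaving out KO n6 replicates 1, 2, 3 and 4 in turn gave 97, 82, 179 and 56 genes. Leaving out the WT n6 replicates in the same order gave 54, 51, 70 and 345. For the KO SFA replicates the counts were 48, 87, 131 and 237, and for the WT SFA replicates 176, 55, 89 and 65. Of the 137 genes, 36 were called in all 16 of these cases, and 25 of those 36 are among the 47 called genes that were followed one by one. Without the 3 libraries richest in B cell or muscle RNA, 30 genes were called, 20 positive and 10 negative, of which 26 belonged to the 137. All of the 47 genes kept their sign without those libraries, 16 of them called and 31 not, with adjusted p up to 0.185. With KO SFA replicate 2 also left out, 11 of the 47 were called and all 47 kept their sign. The 47 had been called with these same libraries, and many were named for a large difference or a small p. Their kept signs were close to built in and carry no test. Under every setting tried 11 genes were called, among them Acss2, Scd1, Hpgd, C4b and Ighm on the positive side and Map1a, Tlcd2, Mfsd12, Asf1b and Masp1 on the negative side.

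**Figure D5:**
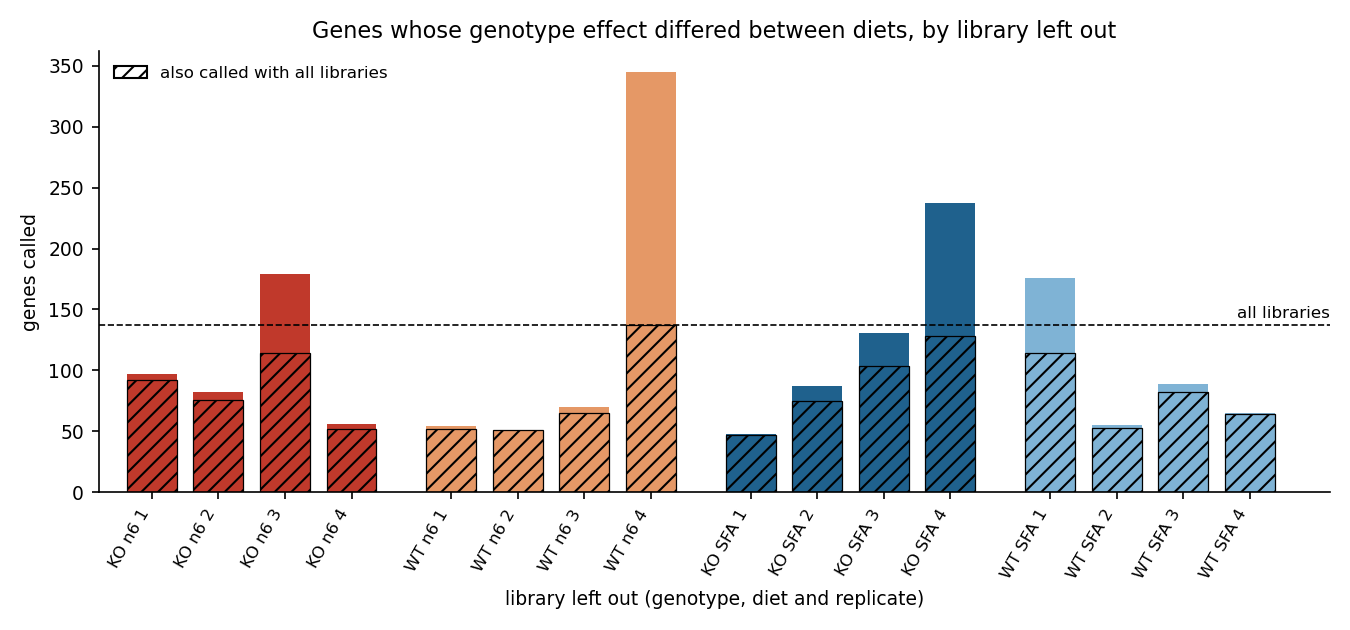
Number of genes whose genotype effect differed between the diets after leaving out each library (bars, coloured by group), with the hatched part also called with all libraries (dashed line, 137 genes). Counts run from 48 without KO SFA replicate 1 to 345 without WT n6 replicate 4.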

How the data were processed

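Per the submitters' processing notes, the authors trimmed reads with fastp 0.23.2 and quantified them with Salmon on mm10; for Salmon the version, options, use of strand and annotation were not given in the sources used here. The authors deposited estimated counts per gene and TPM values (transcript abundance scaled for length and depth) for 24 libraries. The estimated counts were rounded to whole numbers, and genes were kept by edgeR's filterByExpr (minimum count 10, minimum total 15), which left 15259 of 35727 genes and 99.98% of the counts. Differences were tested with edgeR 4.0.16 in R 4.3.3 (TMM scaling, quasi-likelihood test, 1 model over the 24 libraries with 18 residual degrees of freedom). The third diet's groups entered no contrast but shared in the filter, the scaling and the estimate of spread. All tested genes entered the Benjamini-Hochberg adjustment, calls were made below 0.05, and an SE is the log2 difference divided by the square root of its F statistic. Every adjusted p is from this test unless another tool is named.

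Positions come from GENCODE M21 on GRCm38, with 34940 count rows matched to 1 gene by symbol. Named genes are Lpcat3, Ucp1 and, among called genes of sufficient level that are neither predicted nor immunoglobulin or T cell receptor segments, the 10 most positive, the 10 most negative, the 10 with the smallest p, the 6 with the smallest p among those with opposite effects, and the 3 with the smallest p in each gene list with at least 3 called members. Other genes are named where a list is described. Called members of lists with fewer called genes, Ighm, C1ra and relatives or neighbours of named genes were chosen after their values were seen. The genes and the 50 gene lists were chosen with earlier results of these data known. Alternatives were DESeq2 1.42.0, limma 3.58.1 on log2(TPM + 1) or log2(TPM + 0.1), other scaling, no filter, only the 16 libraries, a replicate block, marker lists as covariates and libraries left out. The procedure was also run on simulated counts in which chosen genes were shifted in KO n6 alone and no other group differed. In these data many genes differed by genotype and a few libraries carried RNA of other tissues, so that run does not measure accuracy here. Genes with close copies (C4b, the Ces1 genes, Ighm) or with exons that overlap another gene are uncertain where reads could be shared. Same-numbered replicates were not treated as pairs, since no comparison had every pair's deviations correlated above 0.1. Some genes that the naming rule or the lists hold are not reported here.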

Additional observations from a re-analysis of the deposited data

Results flagged for a closer look

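The genotype effect differed between the diets for 137 genes by edgeR's quasi-likelihood test of the difference itself, and 47 of them that were followed one by one are given with their log2 difference. The largest positive values were those of Ighm (1.57), Gnal (1.53), Cidea (1.5), Ces1f (1.42), Tbx21 (1.10), Nat8l (0.97), Acss2 (0.93), Gldc (0.87), Chchd10 (0.85) and Lrrn2 (0.83). They were followed by Ankrd23 (0.83), Scd1 (0.80), Insig1 (0.79), Ces1d (0.77), Ifi27l2a (0.70), Ptgfr (0.67), Nrg4 (0.67), Cdon (0.58), Slc25a1 (0.57) and Hpgd (0.57). Smaller positive values were those of C4b (0.56), Grb14 (0.56), Dpt (0.55), Agpat2 (0.53), Acacb (0.47), Ptger3 (0.44), Scd2 (0.44), mt-Nd2 (0.42), Elovl6 (0.41) and Trarg1 (0.36). The most negative values were those of Hspb7 (-1.85), Tlcd2 (-1.29), Asf1b (-1.12), Ass1 (-1.11), Masp1 (-1.09), Mfsd12 (-1.02), Nrip2 (-1.02), Plk3 (-0.92) and Map1a (-0.90). They were followed by Fads2 (-0.68), Rdh11 (-0.56), Lpgat1 (-0.55), Vav2 (-0.40), Hsd17b7 (-0.38), G6pdx (-0.35), Pkm (-0.30) and Pcna (-0.24). Plk3, Lrrn2 and Ankrd23, not described above, were called in 8, 7 and 5 of 16 cases with 1 library left out. Without the 3 libraries richest in B cell or muscle RNA none of them was called, at adjusted p of 0.165, 0.056 and 0.0517.

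In 9 of 196 groups of 4 libraries, 1 library lay far from the other 3 relative to the group's range (Dixon's ratio test), which chance gives in about 1 group in 20. In KO SFA these were Masp1 at 3.98 CPM and Lpgat1 at 1871 CPM. In WT n6 they were Cidea at 7.78, G6pdx at 239 and Grb14 at 61.5 CPM. In WT SFA they were Ankrd23 at 10.9, Asf1b at 3.53, Vav2 at 32.8 and G6pdx at 295 CPM.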

How the results depend on the processing

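The number of genes whose genotype effect differed between the diets was 137, and it moved with several choices whose cause was not tested. DESeq2 called 415 genes (228 positive, 187 negative). With only the 16 libraries compared, 106 genes were called (54 positive, 52 negative), 85 of them among the 137. Among the 47 called genes followed one by one, 12 lost the call there, with adjusted p up to 0.097, for Acacb. Limma on log2(TPM + 1) called 269, of which 182 were negative; with a pseudocount of 0.1, 120 were negative, and with no filter 131. Without a filter on counts 40 were negative, and with marker lists as covariates 43. Without the 3 libraries richest in B cell or muscle RNA 30 were called (20 positive, 10 negative). Leaving out KO SFA replicate 2 as well, an alternative chosen after seeing the data, gave 15 (8 positive, 7 negative). Fewer samples enter the last 2 fits. Between n6 and SFA in KO 3474 genes were called, against 2196 with covariates, 1208 without the 3 libraries and 1729 without the 4. In WT 3776 were called, against 6132 with log2(TPM + 1) and 5958 with log2(TPM + 0.1). With 1 library left out, the counts ran from 48 to 345 in all, 27 to 157 positive and 20 to 188 negative. The KO and WT diet counts then ran from 2048 to 4173 and from 2378 to 4145, KO against WT from 5763 to 6595 on n6 and 5269 to 6181 on SFA, and the Lpcat3 difference (0.12) from 0.07 to 0.20, against 0.03 with either TPM pseudocount and 0.08 without the 3 libraries. The replicate block gave 161 genes, 75 positive and 86 negative, and the same-numbered libraries of KO n6 and KO SFA had deviations correlated at 0.246, 0.257, 0.093 and -0.062. Alternatives were fitted across all genes tested in them, and 49 genes were followed one by one, Lpcat3 and 48 others. None of the 49 changed sign, but 47 had been called with these same libraries, so their kept signs carry no test. Values of the 48 kept direction and side of the threshold in 1018 cases, lost the call in 325 and gained it in 1, Ucp1 without WT n6 replicate 4.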

Other observations

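Several listed groups not described above had 0 called members. Of 14 tested PPAR alpha and delta targets, 11 were above 0 with a median of 0.24 (0.21 to 0.29 with 1 library left out). Of 13 granulocyte and mast cell markers, 10 were above 0 with a median of 0.38 (0.28 to 0.46), which was 0.22 without the 3 libraries richest in B cell or muscle RNA. Medians of other cell markers moved by more than 1.5 times with the libraries used. Stromal progenitor markers had 12 of 15 above 0 and a median of 0.11 (0.07 to 0.18), which was 0.02 without the 3 libraries. Endothelial markers had 1 of 14 above 0 and a median of -0.10 (-0.18 to -0.04). Nerve and Schwann cell markers had 1 of 8 above 0 and a median of -0.22 (-0.29 to -0.05). Macrophage markers had a median of 0.08 (-0.01 to 0.19), which was -0.06 without the 3 libraries. Medians within 0.10 of 0 throughout these exclusions were those of the unfolded protein response (22 genes, 0.00), the integrated stress response (21 genes, -0.01), cytosolic ribosomal proteins (34 genes, -0.02) and the proteasome (24 genes, -0.06). Of 50 lists, 18 had a called member and 32 had none. The median over all tested genes was -0.001 with 49.5% of them above 0, and the cell markers' part in other results was not tested.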
